A study of Mus musculus with 9 samples.

Results

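The genes described here are the matrix metalloproteinases (symbols Mmp and a digit), the ADAM proteases (Adam and a digit), the ADAMTS proteases with their relatives (Adamts) and the tissue inhibitors Timp1 to Timp4, chosen by symbol in the annotation of the array. No measured value enters that rule, but it was set with earlier results of these data known. They are 70 of the 18193 genes represented by a probe set with a single gene symbol. Adamts2, on the list of genes to be named, had no such probe set and was not analysed here. RNA was measured on 9 Affymetrix mouse arrays, from primary white adipocytes grown out of the stromal-vascular cells of inguinal fat of male C57BL6 mice aged 30 to 35 days. Of these, 3 arrays hold cells given 100 ng/ml PTH(1-34) for 4 h on day 8 of differentiation, 3 hold cells given 100 ng/ml PTHrP(1-34) for 4 h on the same day, and 3 hold control cells, for which the labels name no vehicle. PTH is parathyroid hormone and PTHrP is parathyroid hormone-related protein, here as amino-terminal fragments, and both activate the receptor encoded by Pth1r, which raises cyclic AMP. All 3 groups had the same induction of 2 days, in which the medium held insulin at 5 µg/ml, rosiglitazone and dexamethasone at 1 µM each, and the phosphodiesterase inhibitor isobutylmethylxanthine at 0.5 µM. Insulin and rosiglitazone were then kept on until plain medium replaced them on day 6. The labels call the replicates biological without saying whether each came from its own mice or culture, and p-values therefore reflect the spread among these samples and nothing wider.

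Matrix metalloproteinases are zinc enzymes that cut collagens, other matrix proteins and some signalling proteins, and most are made as inactive precursors. ADAMs are mostly membrane proteins, several of which release the outer part of receptors and growth factors from the cell surface. ADAMTS enzymes are secreted, and several of them cut proteoglycans such as versican and aggrecan or trim procollagens, while TIMPs block the active site of the MMPs and, to different degrees, of ADAMs and ADAMTS enzymes. In fat, fibroblasts and developing adipocytes use them to remodel the collagen around growing fat cells.

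The promoters of the members that passed the test with each peptide and stand in the RefSeq table, and that of Mmp13, are shown because PTH acts through cyclic AMP and is known to raise Mmp13 in osteoblasts. They are the 250 bases before the transcription start in the RefSeq table for build GRCm38.p6, written 5′ to 3′ on the gene's strand, with matches to the motifs searched in capitals. The motifs, searched on both strands, were the cyclic AMP response element TGACGTCA, its core TGACG, which lies within the full element, the AP-1 site TGANTCA, the TEAD site GGAATG and the TATA box TATAAA. The positions are chr6:92943535-92943784, minus strand for Adamts9, chr5:89883335-89883584, minus strand for Adamts3, chr16:85803114-85803363, minus strand for Adamts1, chr10:75932503-75932752, minus strand for Mmp11 and chr9:7272264-7272513, plus strand for Mmp13.
Adamts9: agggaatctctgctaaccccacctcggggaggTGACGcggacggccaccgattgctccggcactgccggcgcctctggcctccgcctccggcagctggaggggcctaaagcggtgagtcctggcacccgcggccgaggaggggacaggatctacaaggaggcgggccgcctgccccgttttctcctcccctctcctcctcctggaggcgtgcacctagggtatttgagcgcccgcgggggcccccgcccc
Adamts3: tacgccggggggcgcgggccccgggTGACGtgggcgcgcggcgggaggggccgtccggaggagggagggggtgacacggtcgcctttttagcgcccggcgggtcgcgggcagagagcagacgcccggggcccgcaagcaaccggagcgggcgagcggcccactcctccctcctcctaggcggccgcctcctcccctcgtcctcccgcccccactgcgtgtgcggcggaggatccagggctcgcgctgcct
Adamts1: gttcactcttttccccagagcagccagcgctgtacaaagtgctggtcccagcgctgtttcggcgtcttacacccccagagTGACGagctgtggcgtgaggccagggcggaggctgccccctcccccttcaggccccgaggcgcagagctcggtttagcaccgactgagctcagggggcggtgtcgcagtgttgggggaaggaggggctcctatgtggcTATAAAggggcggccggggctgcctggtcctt
Mmp11: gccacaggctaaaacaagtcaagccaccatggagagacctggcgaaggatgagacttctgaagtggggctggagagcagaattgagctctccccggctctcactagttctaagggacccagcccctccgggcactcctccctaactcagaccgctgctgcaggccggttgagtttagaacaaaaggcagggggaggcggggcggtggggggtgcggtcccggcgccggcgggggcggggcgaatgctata
Mmp13: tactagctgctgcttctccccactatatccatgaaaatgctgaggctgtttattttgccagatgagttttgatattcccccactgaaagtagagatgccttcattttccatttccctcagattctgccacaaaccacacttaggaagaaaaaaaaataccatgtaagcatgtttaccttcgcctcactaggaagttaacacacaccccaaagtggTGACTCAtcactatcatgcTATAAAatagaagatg

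The core TGACG began 218 bases before the start in Adamts9, 225 in Adamts3 and 170 in Adamts1, and Adamts1 also held TATAAA 32 bases before it. Mmp11 held none of the 5 motifs in this window. Mmp13 held TGACTCA 35 bases and TATAAA 16 bases before the start. Of the 70 members, 41 were matched to 46 promoters, and Adamts5 and Adamts6 were not among them. The core TGACG stood in 7 of these 46 promoters (15.2%) and in 17.8% of all 32851 promoters. TGACGTCA stood in 0 of the 46 and in 1.55% of all, and GGAATG in 2 of the 46 (4.35%) and 12.6% of all. TGANTCA stood in 10 of the 46 (21.7%) and in 6.75% of all, and TATAAA in 11 (23.9%) and 12.4% of all. Most of those AP-1 and TATA matches belonged to 9 MMP genes that lie on chromosome 9, where 8 held TGANTCA, 7 held TATAAA and 0 held TGACG. Among the other 32 matched genes, 2 held TGANTCA, 4 held TATAAA and 7 held TGACG. A match describes the letters of the window and is not a measured site.

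The signal used is the intensity of a gene's brightest probe set as deposited, which compares one gene between arrays and does not rank different genes by abundance. A probe set was called dim below 29.1, the 40th percentile of all probe sets. Of the 70 members, 42 were above that level on all 9 arrays, 6 on some and 22 on none, and 45 had at least 1 group mean above it. The median signal of an array lay between 48.3 and 52.7. All 5 measured adipocyte markers and all 7 measured preadipocyte and fibroblast markers were above the dim level, as were all 6 smooth muscle and pericyte markers and 5 of 7 macrophage markers, so markers of fat cells and of stromal cells were both present. Of the lists for cells that could supply proteases of their own, 0 of 5 neutrophil markers, 0 of 4 lymphocyte markers and 3 of 6 endothelial markers had a group mean above it. RNA quality was read from the actin probe sets as the signal at the 3' end over that at the 5' end, which was 1.61 ± 0.0312 with PTH, 1.56 ± 0.0457 with PTHrP and 1.47 ± 0.0324 in controls (SD, n = 3 each). It was higher on all 6 treated arrays than on all 3 control arrays (p = 0.0119 by an exact permutation test, two-sided, and no smaller p is possible with 84 splits), and its part in the results was not tested.

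The comparison of each peptide with control asks which of these genes changed within 4 h. Adamts9 rose, and Mmp11, Adamts5 and Adamts1 fell, each with PTH and with PTHrP and under every alternative setting run. Adamts3 rose and Adamts6 fell as well; both calls of Adamts3 and the PTHrP call of Adamts6 depended on single arrays. Changes are log2 differences of intensity + 16, tested with limma, and a member passed when its p adjusted over all 18193 genes was under 0.05. With PTH 6 of 70 members passed (8.57%, against 6.06% of all genes), 2 of them higher (2.94% of all genes were) and 4 lower (3.12%). With PTHrP 10 passed (14.3%, against 5.56%), 4 higher (2.53%) and 6 lower (3.02%), and the 10 included all 6 that passed with PTH, with the same sign. Among the 45 members with a group mean above the dim level, 6 passed with PTH (13.3%, against 8.14% of such genes) and 7 with PTHrP (15.6%, against 7.41%). Over both peptides together, 12 of 70 passed (17.1%, against 8.39%), 5 higher (3.83% of all genes) and 7 lower (4.57%), and 10 of the 45 above the dim level (22.2%, against 11.3%). In 17 members (24.3%, against 15.6% of all genes) all 6 treated arrays lay beyond all 3 control arrays, in either direction. The median log2 change of the 70 members was -0.04 with PTH and 0.0017 with PTHrP, against -0.0026 and -0.0049 over all genes. The PTHrP count was 6 without PTH replicate 3, 5 without control replicate 3, and 4 without either PTHrP replicate 1 or control replicate 2. Over all genes the PTHrP calls, 1011 in the full fit, were 671, 653, 512 and 559 in those fits, in the same order. The count over both peptides was 7 without PTH replicate 1, PTHrP replicate 1 or control replicate 1, and 6 without PTH replicate 3, control replicate 2 or control replicate 3, while the calls over all genes, 1527 in the full fit, were 860 to 1192 in these 6 fits.

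**Figure D1:**
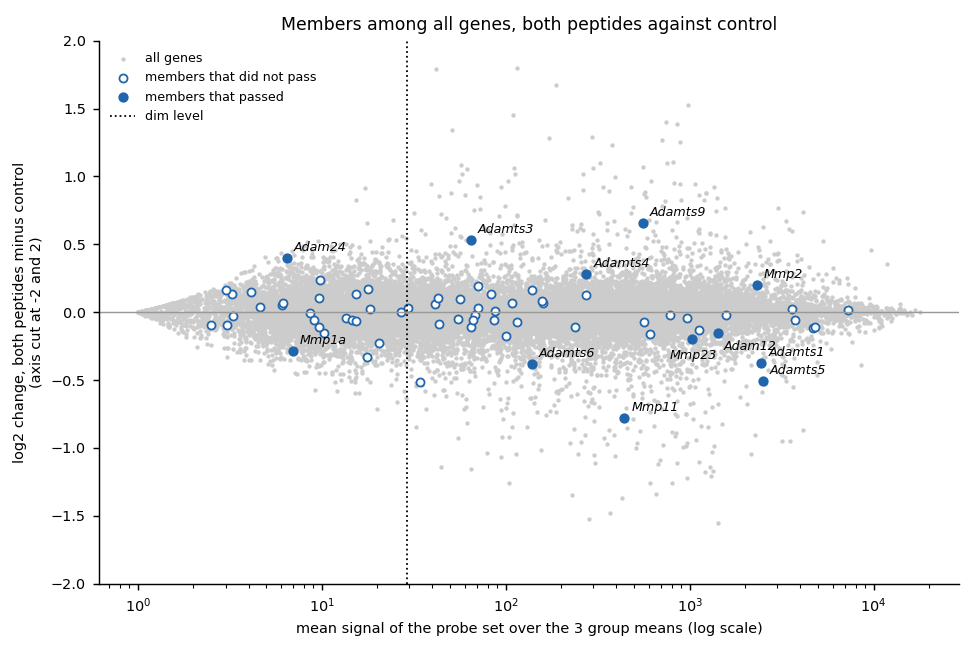
Log2 change over both peptides against control (vertical axis, which ends 2 units above and below 0) by mean signal (horizontal log axis) for all 18193 genes in grey and the 70 members in blue, filled where the adjusted p was under 0.05. The 12 filled members are named, and 2 of them, Adam24 and Mmp1a, lie left of the dotted dim level of 29.1.

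In whole cultures, fewer cells of a type and less RNA per cell cannot be told apart. Beside the falls of Mmp11, Adamts1 and Adamts5, the summed signal of the 6 smooth muscle and pericyte markers was 20868 to 21141 with PTH and 19915 to 21114 with PTHrP, against 21968 to 22568 in controls, without overlap. In that list 1 gene, Myh11, fell with each peptide (log2 change -0.38 and -0.45), and 0 rose. Most of each sum was the signal of Acta2 and Tagln (12400 and 6835 on average with PTH), which did not pass with either peptide. Cnn1 changed by -0.25 and -0.35, Rgs5 by 0.23 and 0.21 and Cspg4 by 0.05 and 0.11, and none of these passed. For the 6 endothelial markers, of which 0 passed, the sum was 217 to 260 with PTH, 226 to 303 with PTHrP and 279 to 319 in controls. The summed signal of the 7 preadipocyte and fibroblast markers was 24574 to 24792 with PTH and 23770 to 26199 with PTHrP, against 25615 to 26777 in controls, with overlap for PTHrP. In it Pdgfrb fell (-0.31 and -0.35), while Pdgfra, Dcn, Col1a1, Thy1, Cd34 and Dlk1 did not pass. Of the 5 adipocyte markers Cidec rose (0.28 and 0.31) and the others did not pass, and of the 7 macrophage markers 0 passed with either peptide. The macrophage sums were 882 to 1001 with PTH, 873 to 952 with PTHrP and 807 to 901 in controls, most of each being the signal of Csf1r (603, 599 and 491 on average), which passed over both (0.28, adjusted p = 0.0320, limma), while the median log2 change of the list was -0.06 with PTH and -0.14 with PTHrP. The macrophage markers Itgam and Cd163 were below the dim level on all 9 arrays. The part of these markers in the members' results was not tested.

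The proteoglycan-cleaving ADAMTS genes split in both directions. Of 7 members, Adamts9 rose and Adamts1 and Adamts5 fell with each peptide, and the other 4 did not pass with either peptide alone. Adamts9 (Entrez gene 101401), an enzyme that cuts versican and aggrecan, had a signal of 623, 644 and 624 on the PTH arrays, 584, 670 and 658 on the PTHrP arrays, and 401, 389 and 400 on the control arrays. Every treated array lay far above every control array, and the peptides overlapped. The log2 change was 0.65 with PTH (SE 0.06, adjusted p = 0.000752, limma) and 0.66 with PTHrP (SE 0.06, adjusted p = 0.000665), or 159% and 161% of the control mean. A second Adamts9 probe set above the dim level changed by 0.62 and 0.59, with an adjusted p of 0.0370 for both peptides together in a fit of all probe sets, but not under 0.05 for either alone (0.0702 and 0.0921).

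Adamts5 (23794), the main aggrecan-cutting enzyme of mouse cartilage, had 2160, 2186 and 2153 with PTH, 2325, 2278 and 2036 with PTHrP, and 2973, 3310 and 3075 in controls. All 6 treated arrays were below all controls. The log2 change was -0.52 with PTH (SE 0.06, adjusted p = 0.00345, limma) and -0.49 with PTHrP (SE 0.06, adjusted p = 0.00427). Its 2 other probe sets above the dim level gave -0.49 and -0.46 with PTH and -0.52 and -0.42 with PTHrP, and all passed in a fit of all probe sets. Adamts1 (11504), a related enzyme that also cuts versican and aggrecan, had 2254, 2208 and 2185 with PTH, 2249, 2217 and 2253 with PTHrP, and 2912, 3022 and 2764 in controls. The 6 treated values lay within a narrow band below the controls. On the log2 scale the change was -0.38 with PTH (SE 0.05, adjusted p = 0.00328) and -0.37 with PTHrP (SE 0.05, adjusted p = 0.00392). In osteoblasts, PTH is known to raise Adamts1. In the RefSeq gene table for GRCm38.p6, Adamts1 and Adamts5 are neighbours with no other coding gene between them. Of 16 such neighbouring pairs among the members, theirs was the 1 pair in which both genes passed over both peptides. Each of the other pairs held a gene with no group mean above the dim level. The share of neighbouring pairs over all genes in which both passed was not computed.

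Adamts4 (240913), the other classic aggrecanase, had 280, 302 and 303 with PTH, 314, 304 and 252 with PTHrP, and 238, 232 and 240 in controls. All treated arrays were above all controls. Its log2 changes of 0.30 with PTH (adjusted p = 0.0750, limma) and 0.27 with PTHrP (0.108) did not pass alone, and 0.28 over both peptides did (adjusted p = 0.0436). That call was lost on leaving out any 1 array other than PTHrP replicate 3 (adjusted p from 0.0596 to 0.137), with arrays centred on the median (0.0660) and with a pseudocount of 1 (0.0583). A dimmer probe set of Adamts4 gave larger values, 0.53 with PTH and 0.61 with PTHrP, and passed with each in a fit of all probe sets (adjusted p = 0.0158 and 0.00866). Adamts15 was above the dim level on all 9 arrays and did not pass, and Adamts8 and Adamts20 were below it on all 9.

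Adamts3 (330119), which removes the amino-terminal propeptide of procollagen and takes part in activating the lymphatic growth factor VEGF-C, was the 1 procollagen ADAMTS gene measured. Its signal was 66.0, 75.3 and 75.5 with PTH, 74.5, 86.6 and 65.6 with PTHrP, and 51.0, 41.2 and 46.2 in controls. All treated arrays were above all controls. The log2 change was 0.51 with PTH (SE 0.10, adjusted p = 0.0202, limma) and 0.56 with PTHrP (SE 0.10, adjusted p = 0.0144). The PTH call was lost without PTH replicate 2, PTH replicate 3, control replicate 2 or control replicate 3 (adjusted p from 0.0629 to 0.0858). The PTHrP call was lost without PTHrP replicate 1 or control replicate 2 (0.0550 and 0.0551), and in a fit without the PTH arrays (0.0563). Both calls were also lost with the replicate number as a block (0.0644 with PTH and 0.0546 with PTHrP). With its probe sets averaged, the other being dim, the change was 0.33 with PTH and 0.34 with PTHrP and not past the threshold (adjusted p = 0.352 and 0.341).

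Of the 7 other ADAMTS genes, Adamts6 alone passed, and 5 were above the dim level on all 9 arrays. Adamts6 (108154), a close relative of Adamts10, had 120, 114 and 121 with PTH, 132, 127 and 128 with PTHrP, and 148, 172 and 181 in controls. The treated arrays lay below the controls, and the PTH arrays below the PTHrP arrays. This was a log2 change of -0.44 with PTH (SE 0.07, adjusted p = 0.00966, limma) and -0.33 with PTHrP (SE 0.07, adjusted p = 0.0318), and PTH minus PTHrP was -0.11 (adjusted p = 0.999). The PTHrP call was lost on leaving out any 1 array other than control replicate 1 (adjusted p from 0.0542 to 0.102), with array weights (0.0504), with the mean of the probe sets (0.123) and in a fit without the PTH arrays (0.105). With the replicate number as a block it was lost too (0.0844). Adamts12, which can cut the cartilage protein COMP, changed by -0.13 with each peptide (adjusted p = 0.219 and 0.211), with all treated arrays below all controls. Adamts7 changed by -0.21 with PTH and -0.01 with PTHrP, and Adamts16 by -0.03 and 0.24, with overlapping arrays in each case (adjusted p from 0.297 to 0.967). Of the 5 ADAMTS-like genes, which encode matrix proteins without a protease domain, all were above the dim level and 0 passed with either peptide. Adamtsl2 changed by 0.21 with PTH (adjusted p = 0.266) and 0.12 with PTHrP (0.550).

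**Figure D2:**
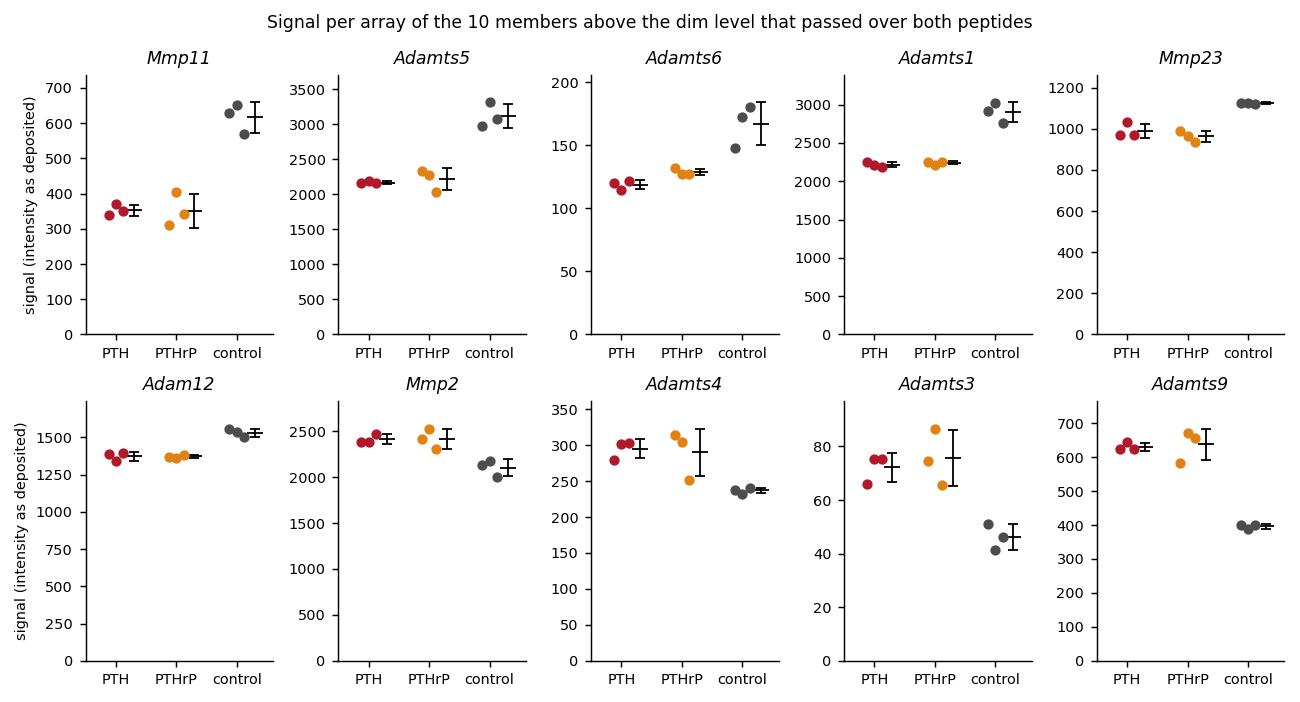
Signal (intensity as deposited, from 0) on each PTH, PTHrP and control array for the 10 members above the dim level that passed over both peptides, one panel and scale per gene. Points are arrays, bars are the mean ± SD of 3, and in every panel the 6 treated arrays lie on one side of the 3 control arrays.

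Among 13 secreted MMPs, Mmp11 fell with each peptide and no other member above the dim level passed with a single peptide. Mmp11 (17385), stromelysin 3, is activated by furin inside the cell and is known to restrain fat cell differentiation in mice. It had 339, 370 and 350 with PTH, 310, 404 and 341 with PTHrP, and 628, 652 and 569 in controls. The highest treated array was well below the lowest control. Its log2 change was -0.77 with PTH (SE 0.10, adjusted p = 0.00349, limma) and -0.79 with PTHrP (SE 0.10, adjusted p = 0.00321), or 57.3% and 57.1% of the control mean. Mmp2 (17390), gelatinase A, had 2387, 2384 and 2472 with PTH, 2417, 2527 and 2304 with PTHrP, and 2135, 2172 and 1999 in controls. All treated arrays were above all controls by a small margin. Its log2 change was 0.20 with each peptide (adjusted p = 0.0776 with PTH and 0.0815 with PTHrP, limma) and passed over both (0.20, adjusted p = 0.0376). That call was lost on leaving out any 1 array other than PTHrP replicate 3 (adjusted p from 0.0647 to 0.126) and with the mean of its 2 probe sets (0.0877). With the replicate number as a block it was lost as well (0.0830). With a trended and robust variance Mmp2 passed with PTH (adjusted p = 0.00678, limma) and with PTHrP (0.00736). Under most alternative settings it passed with neither peptide alone.

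Mmp12, macrophage elastase, had 17.5, 30.1 and 36.9 with PTH, 29.6, 26.2 and 27.1 with PTHrP, and 43.6, 36.9 and 60.5 in controls. The PTHrP arrays were below all controls, while 1 PTH array equalled the lowest control to 3 digits. Its change of -0.52 with PTH and -0.51 with PTHrP did not pass (adjusted p = 0.157 and 0.168). Mmp3, stromelysin 1, changed by 0.29 with PTH and 0.09 with PTHrP, and Mmp9, gelatinase B, by 0.14 and -0.09, and neither passed (adjusted p from 0.349 to 0.821). Mmp13, collagenase 3, was below the dim level on all 9 arrays, with 4.90, 7.18 and 3.99 with PTH, 9.04, 5.13 and 8.84 with PTHrP, and 3.69, 5.83 and 6.94 in controls. The 3 groups overlapped. Of the 9 MMP genes on chromosome 9 whose promoters mostly held AP-1 and TATA matches, 5 were below the dim level on all 9 arrays and 1, Mmp3, was above it on all 9. Mmp1a, an interstitial collagenase, was 1 of the dim ones and passed with PTHrP: it had 5.18, 6.81 and 7.58 with PTH, 4.73, 5.93 and 2.22 with PTHrP, and 10.3, 9.71 and 10.2 in controls. Its log2 change was -0.21 with PTH (adjusted p = 0.164), -0.36 with PTHrP (0.0291) and -0.29 over both (0.0306). The PTHrP call was lost on leaving out any 1 array other than PTH replicate 1 or PTHrP replicate 2 (adjusted p from 0.05005 to 0.0843), and the call over both without any other than PTHrP replicate 2 or 3 (0.0505 to 0.0978). The PTHrP change was -1.13 with a pseudocount of 1 (adjusted p = 0.0657) and -0.12 with 64 (0.0992), and that call was also lost with arrays centred on the median (0.0517), with a trended and robust variance (0.103) and in a fit without the PTH arrays (0.0837). The change over both was -0.85 and -0.09 with these pseudocounts (0.0801 and 0.107), and that call was lost under 5 of 9 settings other than leaving out an array. With the replicate number as a block the PTHrP call was lost as well (0.0835).

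All 5 membrane-bound MMPs measured were above the dim level, and 1 passed. Mmp15 and Mmp25, of the same class, were not among the members analysed. Mmp23 (26561), which is anchored in the membrane by its amino-terminal end until it is cut free, had 968, 1031 and 970 with PTH, 989, 964 and 933 with PTHrP, and 1126, 1126 and 1118 in controls. Every treated array was below every control. The log2 change was -0.18 with PTH (adjusted p = 0.0633, limma), -0.22 with PTHrP (0.0321) and -0.20 over both (0.0192). The PTHrP call was lost on leaving out any 1 array other than PTH replicate 2 (adjusted p from 0.0531 to 0.0912), with arrays centred on the median (0.0815) and in a fit without the PTH arrays (0.0921). The call over both was lost without PTH replicate 3 or any 1 control array (0.0559 to 0.0721) and with arrays centred on the median (0.0622). Both of these calls were also lost with the replicate number as a block (0.0925 with PTHrP and 0.0586 over both). Mmp14, the membrane collagenase that white fat needs for its growth and that activates Mmp2 on the cell surface, had 3755, 3611 and 3695 with PTH, 3712, 3941 and 3482 with PTHrP, and 3768, 3873 and 3923 in controls. Its log2 change was -0.06 with each peptide (adjusted p = 0.623 and 0.675), with a 95% interval of -0.19 to 0.06 for PTH and -0.18 to 0.07 for PTHrP. The PTH arrays were just below all controls, and the PTHrP arrays overlapped them. Mmp16 and Mmp17 changed by -0.20 and 0.09 with PTH and by 0.02 and 0.18 with PTHrP, and Mmp24 by -0.06 and -0.05, and none of the 3 passed.

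Of 9 proteolytic ADAMs, 8 were above the dim level on all 9 arrays and 0 passed with either peptide alone. Adam10 and Adam17, the main enzymes that shed Notch and tumour necrosis factor, changed by -0.05 and -0.03 with PTH and by 0.00 and -0.02 with PTHrP (adjusted p from 0.748 to 0.986). Adam17 had 759, 774 and 797 with PTH, 773, 806 and 757 with PTHrP, and 787, 806 and 781 in controls, with overlapping ranges. A dimmer probe set of Adam17 gave -0.41 with PTH and -0.33 with PTHrP, and passed over both in a fit of all probe sets (-0.37, adjusted p = 0.0460) but with neither alone (0.0673 and 0.147), while the remaining one gave -0.02 and -0.08. Adam9 changed by 0.02 and 0.03. Adam12 (11489), meltrin alpha, which is linked to fat formation in mice, had 1390, 1339 and 1393 with PTH, 1371, 1365 and 1381 with PTHrP, and 1557, 1535 and 1503 in controls. All treated arrays were below all controls. Its log2 change of -0.16 with each peptide did not pass alone (adjusted p = 0.0735 and 0.0749, limma) and passed over both (-0.16, adjusted p = 0.0345). That call was lost on leaving out any 1 of the 9 arrays (adjusted p from 0.0549 to 0.114), with arrays centred on the median (0.0730) and with the mean of the probe sets (0.320), the other of which changed by -0.01 and 0.01. It was also lost with the replicate number as a block (0.101). Adam33 changed by -0.18 and -0.17, with all treated arrays below all controls, and did not pass (adjusted p = 0.214 and 0.264). Its dimmer probe set gave -0.48 and -0.55 and passed over both in a fit of all probe sets (-0.52, adjusted p = 0.0366) but with neither alone (0.0984 and 0.0666). With the mean of the probe sets, Adam33 passed over both (-0.35, adjusted p = 0.0360).

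Adam11, Adam22 and Adam23, which lack a working metalloprotease site, were above the dim level on all 9 arrays and did not pass. Of the 16 other ADAMs, most of which are known from testis, 12 were below the dim level on all 9 arrays. Adam24 and Adam32 rose with PTHrP from dim signals. Adam24 had 6.19, 5.30 and 6.61 with PTH, 10.8, 7.59 and 14.3 with PTHrP, and 4.19, 1.97 and 1.31 in controls. Its log2 change was 0.26 with PTH (adjusted p = 0.190), 0.54 with PTHrP (0.0163) and 0.40 over both (0.0231). The PTHrP call was lost without PTHrP replicate 1, control replicate 2 or control replicate 3 (adjusted p from 0.0616 to 0.0640), and the call over both without these, PTH replicate 1 or PTH replicate 3 (0.0525 to 0.0972). The PTHrP change was 1.81 with a pseudocount of 1 and 0.17 with 64, and its call was lost in a fit without the PTH arrays (0.0727). The change over both was 1.45 and 0.12, and its call was lost with 64 (0.0639). Adam32 had 12.4, 18.4 and 16.3 with PTH, 23.9, 21.1 and 23.0 with PTHrP, and 14.6, 16.3 and 14.3 in controls, a log2 change of 0.02 and of 0.32 (adjusted p = 0.910 and 0.0478). The PTHrP call was lost on leaving out any 1 array other than PTH replicates 1 and 2 (0.0783 to 0.156) and under 8 of 10 other settings, and the change was 0.56 with a pseudocount of 1 and 0.13 with 64. In both genes every PTHrP array was above every PTH array, but the difference did not pass (adjusted p = 0.999 for Adam24 and 0.991 for Adam32). Of 6 male germ cell markers, 2 had a group mean above the dim level, and 0 of the 6 passed.

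None of the 4 inhibitors passed in the comparisons with control in the main fit. Timp1 had 7256, 7299 and 7433 with PTH, 6971, 7290 and 7324 with PTHrP, and 7120, 7379 and 7006 in controls, a log2 change of 0.03 and 0.01 (adjusted p = 0.782 and 0.971, limma). The ranges of the 3 groups overlapped. Timp2, which also helps Mmp14 to activate Mmp2, had 4735, 4556 and 4434 with PTH, 4451, 4538 and 4610 with PTHrP, and 5016, 5018 and 4748 in controls. Timp3, which binds to the matrix and also inhibits Adam17, had 4672, 4613 and 4545 with PTH, 4679, 4877 and 4656 with PTHrP, and 4963, 5270 and 4901 in controls. In both genes all treated arrays were below all controls by a small margin. The log2 changes were -0.11 and -0.12 for Timp2 (adjusted p = 0.275 and 0.228) and -0.13 and -0.09 for Timp3 (0.181 and 0.376). A dimmer probe set of Timp2 gave -0.29 with PTH and passed in a fit of all probe sets (adjusted p = 0.0413), with -0.21 for PTHrP (0.130). Over both peptides that probe set gave -0.25 and passed (0.0323). No other Timp2 or Timp3 probe set passed in that fit. With a trended and robust variance, Timp2 passed with PTHrP (adjusted p = 0.0407, limma) and over both (0.0197). Timp3 passed there with PTH (0.0250) and over both (0.0225). No inhibitor passed under any other setting. Timp4, which is prominent in fat tissue, was below the dim level on all 9 arrays, with means of 14.5, 15.3 and 16.2 in PTH, PTHrP and control arrays.

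**Figure D3:**
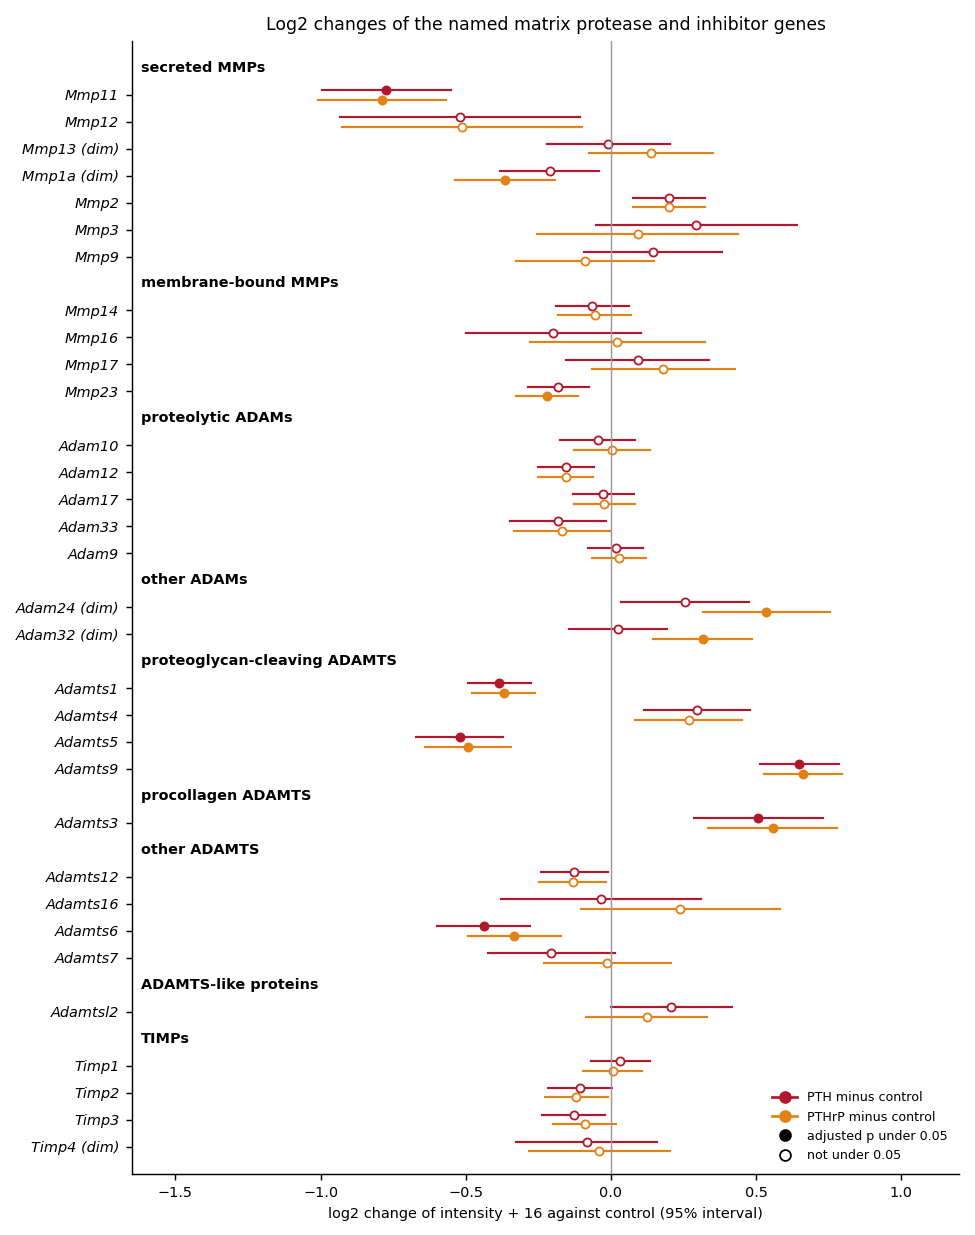
Log2 changes of the 32 named members by role, PTH minus control in red above PTHrP minus control in orange, with 95% intervals from limma. Filled points have an adjusted p under 0.05, and genes below the dim level on all 9 arrays are marked dim. Adamts9 and Adamts3 lie to the right and Mmp11, Adamts5, Adamts1 and Adamts6 to the left with filled points for both peptides.

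The comparison of PTH with PTHrP asks whether the peptides differ in any of these genes. In it 0 of 70 members passed, and 0% of all genes did, by limma. At an unadjusted p under 0.05 there were 7 members and 731 genes. Among the members called over both peptides or with either one, the 95% interval of PTH minus PTHrP reached between 0.0955 and 0.222 log2 units on either side of the estimate, without adjustment for the number of genes. Larger differences than these also missed the adjusted threshold, such as -0.29 for Adam32 (unadjusted p = 0.00413, adjusted p = 0.991, limma). Both comparisons with control share the same 3 control arrays, and their similar values are therefore not independent of each other.

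The lists of interacting genes were described in the same way, by counts. Beside these counts, 2.94% of all genes rose and 3.12% fell with PTH, and 2.53% rose and 3.02% fell with PTHrP. Among the matrix substrates Vcan rose with each peptide. Vcan, versican, the proteoglycan that Adamts1, Adamts4, Adamts5 and Adamts9 cut, averaged 3463 ± 150 with PTH, 3514 ± 98.1 with PTHrP and 2040 ± 73.5 in controls (SD, n = 3 each). Its log2 change was 0.76 with PTH (adjusted p = 0.000210, limma) and 0.78 with PTHrP (adjusted p = 0.000179), or 0.34 and 0.33 with the mean of its probe sets. Of 17 matrix substrates measured, 1 rose and 2 fell with PTH, and 1 rose and 1 fell with PTHrP, with a median log2 change of -0.03 and -0.01. Lama4, a laminin chain of the basement membrane of fat cells, fell by 0.23 and 0.24 on the log2 scale. Lum, the collagen-binding proteoglycan lumican, changed by -0.37 with PTH and -0.17 with PTHrP, and passed with PTH alone. The Lama4 call was lost with PTH without any 1 PTH array, control replicate 1 or control replicate 2 (adjusted p from 0.0525 to 0.0725), and with PTHrP without PTHrP replicate 1, control replicate 1 or control replicate 2 (0.0508 to 0.0621). The Lum call was lost without PTH replicate 1, PTH replicate 3 or control replicate 2 (0.0518 to 0.0648). The collagen genes on this list, Col1a1, Col1a2, Col3a1, Col4a1, Col4a2, Col5a1, Col6a1 and Col15a1, did not pass with either peptide.

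In the plasminogen system, which produces plasmin that can activate MMP precursors, 3 of 8 measured genes rose and 1 fell with PTH, and 2 rose and 1 fell with PTHrP, with a median log2 change of 0.22 with each. The activators moved in opposite directions: Plau, urokinase, averaged 98.2 ± 5.16 with PTH, 101 ± 8.82 with PTHrP and 68.5 ± 3.56 in controls, while Plat, tissue plasminogen activator, averaged 952 ± 10.9 with PTH, 984 ± 26.4 with PTHrP and 1180 ± 30.8 in controls (SD, n = 3 each). The log2 changes were 0.43 and 0.47 for Plau and -0.31 and -0.26 for Plat. With the mean of its probe sets Plau changed by 0.17 and 0.16 and did not pass (adjusted p = 0.275 and 0.318). Plat changed by -0.29 and -0.31 in that setting and did not pass either (0.0848 and 0.0652), and its PTHrP call was also lost without PTHrP replicate 1 (0.0542) and in a fit without the PTH arrays (0.0693). Serpinb2, an inhibitor of urokinase, changed by 0.54 with PTH (adjusted p = 0.00780) and 0.33 with PTHrP (0.0585). Hgf, a growth factor related in sequence to plasminogen, changed by 0.49 and 0.46. Its PTH call was lost without any 1 PTH or control array (adjusted p from 0.0573 to 0.109), and its PTHrP call without any 1 array other than PTHrP replicate 3 (0.0618 to 0.140).

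Of 19 convertases and regulators, 2 rose and 1 fell with PTH and 2 rose and 2 fell with PTHrP, with a median of -0.01 and 0.05. Pcsk5, a furin-like convertase that can activate precursors in the secretory pathway, averaged 1107 ± 37.9 with PTH, 1122 ± 91.7 with PTHrP and 685 ± 49.0 in controls, a log2 change of 0.68 and 0.70, or 0.41 and 0.48 with the mean of its probe sets. Furin itself changed by -0.01 and 0.07 and did not pass. Thbs1, a matrix protein that binds Mmp2, fell by 0.41 and 0.36 on the log2 scale. Sdc4, a heparan sulfate carrier, changed by 0.22 and 0.18, and its call was lost with PTH without any 1 PTH or control array (adjusted p from 0.0539 to 0.0945) and with PTHrP without any 1 of the 9 arrays (0.0793 to 0.126). Rhbdf1, a partner protein of Adam17, changed by -0.16 with PTH (adjusted p = 0.152) and -0.23 with PTHrP (0.0460), a call lost without any 1 of the 9 arrays (0.0518 to 0.155). Reck, a membrane inhibitor of MMPs, changed by 0.05 with each peptide and did not pass.

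Among 16 other secreted proteases and procollagen-processing genes, Tll1 rose with each peptide and the other 15 did not pass. Tll1, a relative of the procollagen protease Bmp1, averaged 52.6 ± 2.85 with PTH, 46.8 ± 3.94 with PTHrP and 18.3 ± 5.30 in controls (SD, n = 3 each). Its controls were below the dim level, and its log2 change of 1.01 and 0.88 was 1.51 and 1.34 with a pseudocount of 1 and 0.50 and 0.43 with 64. Of 19 shed proteins and ligands measured, 2 rose with PTH and 3 with PTHrP, 0 fell, and the median was 0.04 and 0.07. Sdc1, syndecan-1, averaged 5925 ± 126 with PTH, 5887 ± 159 with PTHrP and 4110 ± 107 in controls, a log2 change of 0.53 and 0.52. Cx3cl1, the chemokine fractalkine, which Adam10 and Adam17 release from the membrane, changed by 0.45 and 0.41. With the mean of its probe sets it changed by 0.07 and 0.13 and did not pass (adjusted p = 0.838 and 0.706), and its PTHrP call was lost without control replicate 2 (0.0501) and in a fit without the PTH arrays (0.0640). Tnfrsf1b, a tumour necrosis factor receptor, changed by 0.18 with PTH (adjusted p = 0.104) and 0.24 with PTHrP (0.0482), a call lost without any 1 array other than control replicate 3 (0.0805 to 0.139). Apart from leaving out an array, the PTHrP call of Tnfrsf1b was lost under 7 of 11 settings, those of Sdc4 and Rhbdf1 under 5, that of Hgf under 3 and that of Lama4 under 2. With the replicate number as a block the PTH calls of Hgf, Sdc4 and Lama4 were lost (adjusted p = 0.0808, 0.0711 and 0.0674, limma). The PTHrP call of Plat was lost there too (0.0572).

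**Figure D4:**
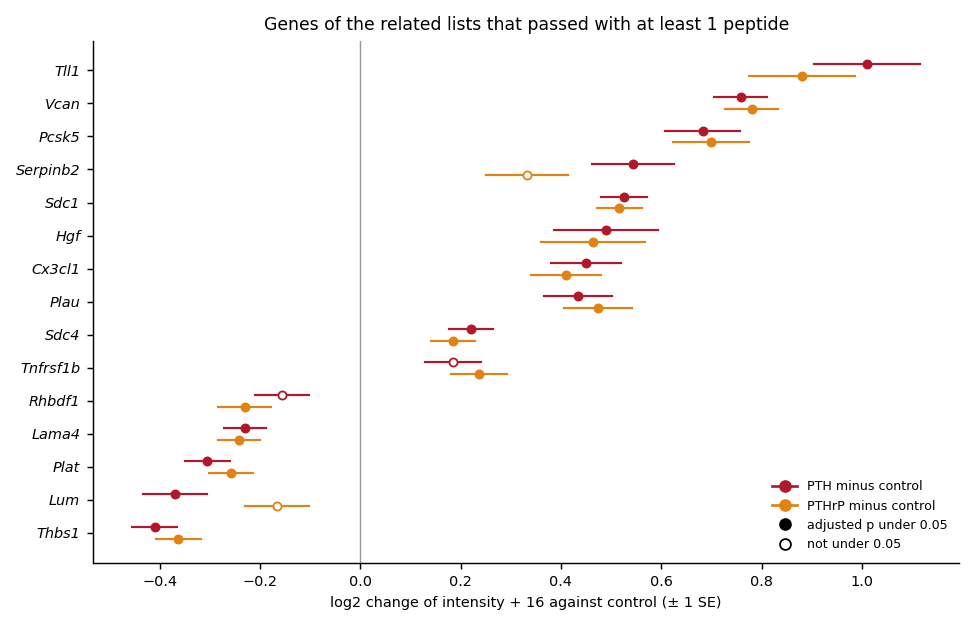
Log2 changes of the 15 interacting genes that passed with at least 1 peptide, PTH minus control in red above PTHrP minus control in orange, with bars of 1 SE from limma. Filled points have an adjusted p under 0.05. Tll1, Vcan and Pcsk5 lie furthest to the right and Thbs1 furthest to the left.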

How the data were processed

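RNA of 9 samples was labelled as biotin cRNA for Affymetrix arrays, per the labels' protocols. The deposited values are one intensity per probe set, which their range shows to be on a linear scale; of the authors' background correction, scaling and summary method nothing is given in the sources used here, and log2 changes are fold changes only if the scale is linear. Of 45101 probe sets, 34945 had 1 gene symbol, 932 had several, 9160 had none and 64 were array controls. Each of 18193 genes was represented by the probe set with 1 symbol that had the highest mean log2(intensity + 16). These log2 values, computed here from the deposited intensities, were fitted with limma 3.58.1 in R 4.3.3, with a mean for each of 3 groups of 3 arrays, and its two-sided p-values were adjusted with the Benjamini-Hochberg method within each of 4 comparisons, over every gene. The threshold was 0.05, and the fit had 8.21 degrees of freedom, prior included. Figures and motif searches used Python 3.11.15 and matplotlib 3.10.9.

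The members, lists and tests were chosen with earlier results of these data known. Named were the members past the threshold in any comparison, the 12 with the highest signal, the 8 with the largest change among the rest above the dim level, a list of well-known members, and every interacting gene past the threshold with PTH or PTHrP. The fit was tested on simulated data. Alternatives changed one choice at a time: the scaling (quantile, median or 75th percentile), the pseudocount (1 or 64), the probe sets (their mean), the replicate number as a block, the variance model (trended and robust, or with array weights), the genes (dim ones left out), the arrays (each left out in turn, or the third group left out) and the threshold (0.01). The number of arrays limits the precision. Probe sets with several symbols, among them 5 that name a member, were left out. Scan dates were not used here, so no batch was fitted.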

Additional observations from a re-analysis of the deposited data

How the results depend on the processing

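No called result changed direction under any alternative run. Adamts1, Adamts5, Adamts9 and Mmp11 stayed past the threshold with PTH, with PTHrP and over both peptides under every alternative, as did Adamts6 with PTH and over both; 14 of the 28 calls of named members did so. The PTH count of 6 was 10 with dim genes left out, 11 with a trended and robust variance, 10 with a pseudocount of 64, and 5 to 7 without 1 array. Over all genes the PTH calls, 1103 of 18193, were 1597 of 12820, 1741 and 1530 under the first 3 of these. The PTHrP count of 10 was 5 in a fit of only the 2 groups, 4 at an adjusted p under 0.01, and 4 to 8 without 1 array. In that fit of 2 groups the PTHrP calls over all genes were 454, against 1011 in the main fit. The count of 12 over both was 6 at an adjusted p under 0.01 and 6 to 11 without 1 array. The 28 calls were 15 to 25 without 1 array, and the difference in the actin ratio of 0.114 was 0.099 to 0.131. PTH against PTHrP gave 0 members under every alternative and, over all genes, 2 with a pseudocount of 1 and 1 without PTHrP replicate 1. Of 9 same-numbered pairs of arrays, correlations of deviations ran from -0.255 to 0.185 and 2 were over 0.1. In pairs with different numbers they ran from -0.246 to 0.319. With 3 arrays in each group, these values cannot show whether same-numbered samples shared mice or a culture. With the replicate number as a block, counts were 5 for PTH, 5 for PTHrP, 7 over both and 17 of the 28 calls. Over all genes the block gave 671 calls for PTH, 572 for PTHrP and 1032 over both. The main fit gave 1103, 1011 and 1527. Below the dim level of 29.1 changes depend on the pseudocount, and 25 of the 70 members had no group mean above it.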
